A study of Bos taurus with 4 samples.

Results

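Protein kinase A is the enzyme through which most cells read cyclic AMP, and the mouse clones of its subunits and inhibitors on a cDNA array were followed in bovine chromaffin cells given PACAP. Members were all library clones whose platform annotation gives 1 of 9 gene symbols: the catalytic subunits Prkaca and Prkacb, the regulatory subunits Prkar1a, Prkar1b, Prkar2a and Prkar2b, and the heat-stable inhibitors Pkia, Pkib and Pkig. The rule found 11 clones of 7 genes among 35960 library clones. No clone carried Pkib or Pkig as its single symbol. Of the 11 clones, 10 have a clone title that names the same gene, and the Prkar2a clone is titled only as a RIKEN cDNA. The cells were bovine chromaffin cells, the catecholamine-secreting cells of the adrenal medulla, although the tissue entry of the labels reads brain. Treated cells received PACAP (pituitary adenylate cyclase-activating polypeptide) in vitro at 100 ng/ml for 6 h at 37 C. Control cells have no treatment entry in the labels. RNA from treated cells (Cy5) and from control cells (Cy3) of the same repeat shared 1 array, for 4 biological repeats, and the dyes were never swapped. A dye preference of a clone and an effect of PACAP on it therefore cannot be told apart. The labels do not say whether the repeats came from separate animals, so p-values measure only the spread between these 4 arrays.

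Inactive protein kinase A is a tetramer of a regulatory dimer and a pair of catalytic subunits. PACAP receptors couple to Gs and adenylyl cyclase. The cyclic AMP formed binds the regulatory subunits and frees the catalytic ones, which phosphorylate cytosolic targets and, in the nucleus, CREB family factors. Type I regulatory subunits (Prkar1a, Prkar1b) are mostly soluble, type II subunits (Prkar2a, Prkar2b) are held at membranes and the cytoskeleton by A-kinase anchoring proteins, and the Pki proteins block free catalytic subunits with a pseudosubstrate.

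The treated channel was measured better than the control channel for these clones. Signal is given after subtraction of the local background, and it was counted as detected where it exceeded 2 standard deviations (SD) of that background. The 11 clones gave 44 values per channel, of which 44 were detected in the PACAP channel and 29 in the control channel. Control signal was detected for 8, 7, 3 and 11 of the 11 clones on repeats 1 to 4. Over all library clones the detected share ran from 90.7 to 98.3% in Cy5 and from 45.3 to 94.7% in Cy3, lowest on repeat 3. Of 16 clones for 10 chromaffin marker genes, 16 were detected in Cy5 and 12 in Cy3 on 3 or more arrays. Their median log2 ratio was 0.17, with a range of -0.69 to 1.84. Dbh, Pnmt and Slc18a2, further markers of these cells, had no clone with that single symbol and were not analysed here. Markers of adrenal cortex, fibroblast, endothelial, Schwann and leukocyte cells had list medians of -0.26, -0.04, 0.16, 0.16 and 0.13 (log2 ratio), and limma called 0 of their clones. These markers were detected too. On 3 or more arrays, 16 of 17 fibroblast clones were detected in Cy5 and 14 in Cy3. The counts were 9 and 5 of 9 for adrenal cortex and 4 and 2 of 4 for endothelial clones. They were 2 and 0 of 2 for Schwann and 2 and 2 of 2 for leukocyte clones. The part of these cell types in the results was not tested. Fewer cells of a type and less RNA per cell cannot be told apart in such samples. Before normalisation the PACAP signal was the higher for 11 of the 11 clones on repeat 1 and for 0 of the 11 on repeat 4, beside a shift of the whole array. The median log2 ratio over library spots was 0.58 on repeat 1 and -1.17 on repeat 4. Comparisons use the log2 ratio of PACAP over control after intensity-dependent (loess) normalisation within each array, on which the median clone is near 0.

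**Figure D1:**
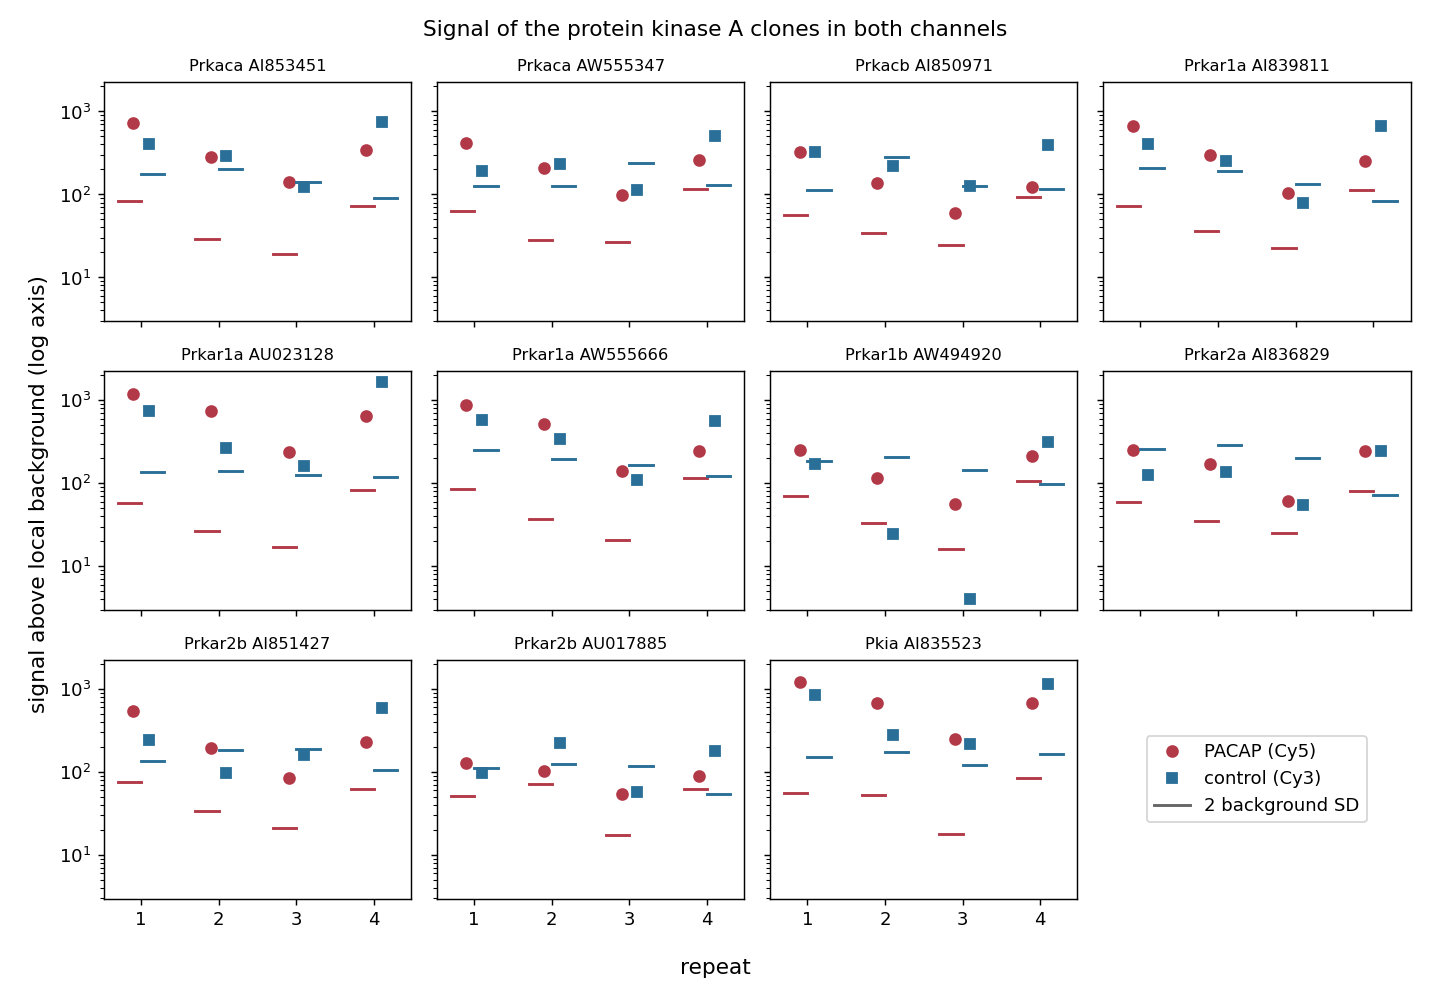
Signal above local background of each protein kinase A clone on the 4 arrays (x axis, repeat; y axis, scanner units on a log scale), for PACAP (circles) and control (squares), with short lines at 2 background SD of each channel. The control squares of Prkar1b and Prkar2a lie under their lines on 3 of 4 arrays.

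Of the 11 clones, Prkar2a and Prkar1b were higher and Prkacb was lower with PACAP on every array, and the other 8 had signs that differed between arrays. Clones higher on all arrays measured made up 9.98% of the 35110 clones tested, and those lower on all made up 10.1%, against 2 and 1 of the 11 members. No member passed limma's test at an adjusted p under 0.05, and neither did any other clone (0% called; lowest adjusted p over all clones 0.454). With a trended and robust prior variance limma called 3 library clones. At an unadjusted p under 0.05 there was 1 higher member, Prkar2a, beside 3.92% of all clones, and 1 lower member, Prkacb, beside 6.46%. Member means ran from -0.57 to 0.65, with a median of 0.11 against -0.01 for all clones tested. The median SD over arrays was 0.44 among members and 0.55 among all clones.

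**Figure D2:**
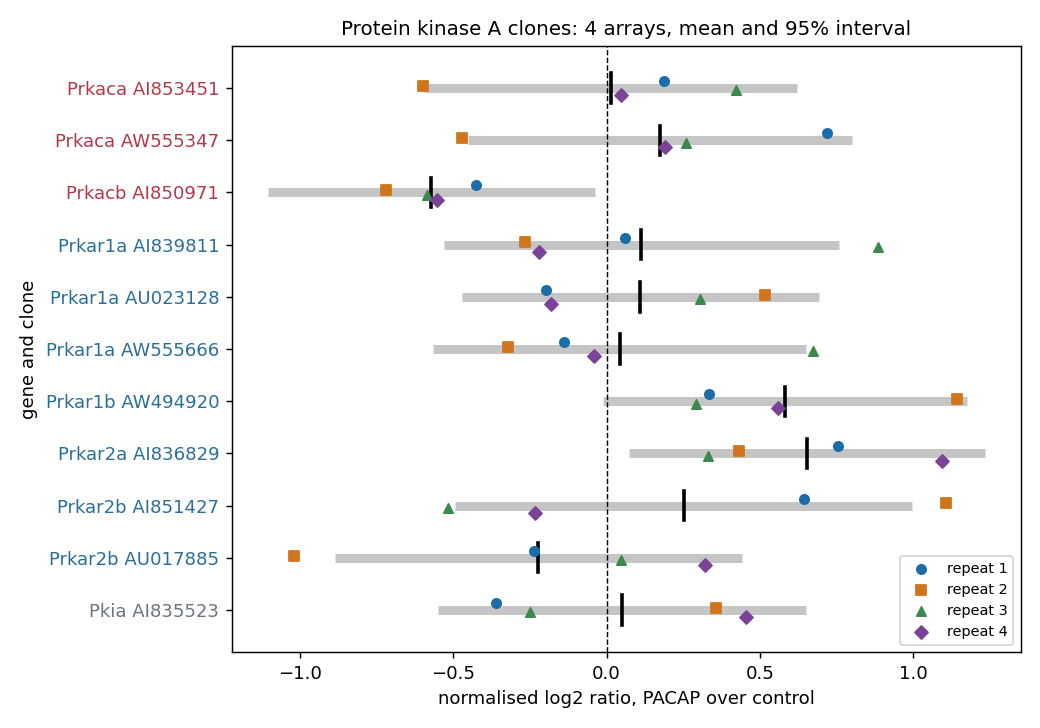
Normalised log2 ratio of PACAP over control (x axis) for the 11 clones (y axis; red labels catalytic, blue regulatory, grey inhibitor), with 1 symbol per array, a black bar at the mean and a grey band for limma's 95% interval (unadjusted). The band of Prkacb lies below 0 and that of Prkar2a above 0, and the other 9 bands cross 0.

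Among the catalytic subunits, Prkacb stood lower with PACAP and Prkaca, the widely expressed isoform, did not move one way. The Prkacb clone (AI850971; catalytic subunit beta, abundant in neural tissue) had PACAP signals of 325.4, 136.8, 60.4 and 123.9 on repeats 1 to 4, and control signals of 320.5, 223.2, 127.2 and 392.2. Its normalised log2 ratios were -0.43, -0.72, -0.59 and -0.55. All 4 arrays fell within a narrow band below 0, with a mean of -0.57 ± 0.12 (SD, n = 4), or 0.673-fold. Only 1.59% of all clones had a smaller SD, but this clone was picked as the member with the smallest. Under median centring the band was wider, with arrays at -0.56, -1.24, -1.15 and -0.49 and a mean of -0.86 ± 0.39. As reported, its 95% interval on the log2 scale ran from -1.10 to -0.04, and limma gave an adjusted p of 0.467. Control signal was detected on 3 of 4 arrays, and the mean over those 3 was -0.52. The spot on repeat 4 covered 51 pixels, against 105 to 126 on the other arrays. With 1 loess curve per print block in place of 1 per array, the mean was -0.25 ± 0.17, with repeat 2 at 0.01. In the deposited log2 ratios, which take the local background off again from values already free of it, stop at 1 and are not centred, the mean was 1.13 ± 4.70. Relative to the median of all clones there it was -2.18.

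Prkaca was represented by 2 clones, both of them with repeat 2 below 0 and the other arrays above. Clone AI853451 had log2 ratios of 0.19, -0.60, 0.42 and 0.05 on repeats 1 to 4. Its mean was 0.01 ± 0.44, and the 95% interval of the fold was 0.663 to 1.54 (limma adjusted p = 0.988). Clone AW555347 had 0.72, -0.47, 0.26 and 0.19, with a mean of 0.17 ± 0.49 and an interval of 0.731 to 1.74-fold (adjusted p = 0.816). The sign was the same for both clones on 4 of 4 arrays, and they differed by -0.16 ± 0.28 (AI853451 minus AW555347). Both had control signal detected on repeats 1, 2 and 4 only. Each mean lay within the spread between its arrays, and the first turned negative (-0.03) under median centring and the second too (-0.07).

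The type I regulatory subunit Prkar1a, the main regulator that restrains the catalytic subunits in most tissues, had 3 clones with means near 0. Clone AU023128 was detected in both channels on all 4 arrays, and its log2 ratios were -0.20, 0.52, 0.30 and -0.18 on repeats 1 to 4. Its mean was 0.11 ± 0.36, with a 95% interval of 0.721 to 1.62-fold (limma adjusted p = 0.881). Clone AI839811 had 0.06, -0.27, 0.88 and -0.22, and clone AW555666 had -0.14, -0.32, 0.67 and -0.04. Their means were 0.11 ± 0.53 and 0.04 ± 0.44. In both, repeat 3 was the highest array, and it was also the array on which their control signal was not detected. Without repeat 3 the means were -0.14 and -0.17. These latter clones differed from each other by 0.07 ± 0.18, whereas AU023128 went the other way on repeat 2, at 0.52.

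Prkar1b, the type I regulatory subunit known mainly from brain, was higher with PACAP on each array, but from a control signal that was mostly not detected. Its clone (AW494920) had PACAP signals of 252.0, 114.9, 56.8 and 214.7 on repeats 1 to 4. Control signals were 170.5, 24.6, 4.0 and 314.4, with only the last detected. The log2 ratios were 0.33, 1.14, 0.29 and 0.56. They gave a mean of 0.58 ± 0.39 (n = 4), with a 95% interval of -0.01 to 1.17 on the log2 scale (limma adjusted p = 0.480). On repeat 3 the log2 ratio was 3.83 before normalisation and 0.29 after it. Under median centring, which has no such curve, the arrays read -0.02, 1.69, 3.76 and 0.62, with a mean of 1.51. The mean was above 0 in every setting that tested the clone. In the deposited log2 ratios it was 3.06, which is -0.26 relative to the median of all clones there.

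Prkar2a, the widely expressed type II regulatory subunit, had the highest mean of the 11 clones. Its clone (AI836829) had PACAP signals of 247.7, 169.4, 61.4 and 244.0, and control signals of 125.1, 134.7, 55.2 and 246.1 on repeats 1 to 4. PACAP signal was detected on all 4 arrays, control signal on repeat 4 only. The log2 ratios were 0.76, 0.43, 0.33 and 1.09, all above 0 and highest on repeat 4. On repeat 4 the log2 ratio was -0.01 before normalisation, where the median over library spots was -1.17, and 1.09 after it. The mean was 0.65 ± 0.34, or 1.57-fold with a 95% interval of 1.05 to 2.35 (limma adjusted p = 0.457). Median centring gave a mean of 0.36 with repeat 2 at -0.21, and print-tip loess gave 0.61 with repeat 3 at -0.28. Of all clones tested, 10.5% had control signal on just 1 of 4 arrays, as Prkar2a and Prkar1b did. Their median log2 ratio was -0.003, and 10.6% of them were higher on all arrays.

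Prkar2b, the type II subunit of brain, endocrine and fat cells, gave opposite answers from its 2 clones. Clone AI851427 had log2 ratios of 0.64, 1.11, -0.52 and -0.23 on repeats 1 to 4. Clone AU017885 had -0.24, -1.02, 0.05 and 0.32, so that the signs differed on 4 of 4 arrays. The means were 0.25 ± 0.76 and -0.22 ± 0.58 (limma adjusted p = 0.775 and 0.776). The widest gap, 2.12, was on repeat 2, where the spot of AU017885 covered 11 pixels and the control signal of AI851427 was not detected. With the clones averaged on each array, the gene had a mean of 0.01 ± 0.18. The small SD of that average stands beside clones of opposite sign on every array.

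Pkia, the alpha form of the heat-stable inhibitor, was among the best measured members and lay near 0. Its clone (AI835523) was detected in both channels on 4 of 4 arrays. PACAP signals were 1210.4, 680.8, 249.7 and 678.2, and control signals were 842.2, 275.0, 217.1 and 1140.8. The log2 ratios were -0.36, 0.36, -0.25 and 0.46, with 2 arrays on each side of 0. The mean was 0.05 ± 0.41, with a 95% interval of 0.683 to 1.57-fold (limma adjusted p = 0.952).

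The isoforms of a pair sit on the same arrays, so their log2 ratios can be set against each other within each array. These 3 differences were chosen after the values were seen, so their p-values give no independent support. The dyes were never swapped, and a dye preference of a clone stays in such a difference. Prkacb was below the mean of the Prkaca clones on 4 of 4 arrays, by 0.88, 0.19, 0.93 and 0.67 on repeats 1 to 4. The mean difference was -0.66 ± 0.34, with an exact 2-sided sign-flip permutation p of 0.125, the smallest that 4 arrays can give (0.188 adjusted over 3 differences). With print-tip loess it was -0.41 ± 0.63 and no longer of one sign (exact permutation p = 0.250). Prkar2a was above the mean of the Prkar2b clones on 4 of 4 arrays, by 0.55, 0.39, 0.57 and 1.05. The control signal of Prkar2a was not detected on repeats 1 to 3, and the Prkar2b clones averaged here had opposite signs on every array. On repeat 2 the Prkar2b clone AI851427, at 1.11, lay above Prkar2a, at 0.43. The difference of Prkar2a and Prkar2b was 0.64 ± 0.29, again at the smallest exact permutation p of 0.125 (0.188 adjusted). Without spots under 60 pixels it was 0.41 ± 0.78 (exact permutation p = 0.500), and with print-tip loess 0.61 ± 0.75 (exact permutation p = 0.250), so that the single sign was lost. In the deposited log2 ratios the exact permutation p was 0.375. Prkar1b was above the mean of the Prkar1a clones on 3 of 4 arrays, by 0.49 ± 0.63 (exact permutation p = 0.250, adjusted 0.250), with repeat 3 at -0.33. With print-tip loess the difference of Prkar1b and Prkar1a was 0.49 ± 0.50 (exact permutation p = 0.125). In the deposited log2 ratios this last difference was -1.19. The design cannot bring any of the 3 under 0.05. By role, the 3 catalytic clones had a median log2 ratio of 0.01 and the 7 regulatory clones of 0.11.

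**Figure D3:**
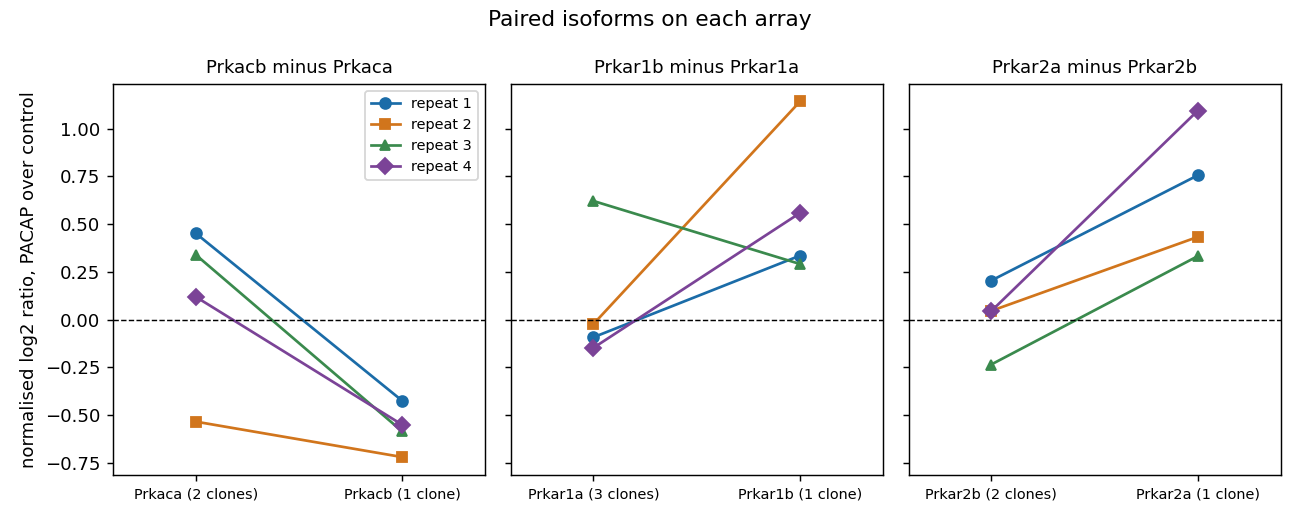
Normalised log2 ratio of PACAP over control (y axis) for both isoforms of each pair (x axis), averaged over a gene's clones, with 1 line per array. The line runs down from Prkaca to Prkacb and up from Prkar2b to Prkar2a on all 4 arrays, and from Prkar1a to Prkar1b it runs up on 3.

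The rest of the pathway was read over 6 lists of genes upstream and downstream of the kinase, with 105 clones of 49 genes tested. Limma called 0 of them at an adjusted p under 0.05. At an unadjusted p under 0.05, 6 were higher and 8 lower, beside 3.92% and 6.46% of all clones tested, and their median log2 ratio was 0.04. The list counts that follow are at the same p and stand beside the same shares. Upstream, 0 of 5 clones of PACAP and VIP receptors and 0 higher but 3 lower of 10 adenylyl cyclase clones had such a p, among them Adcy6 at -0.68 ± 0.31 (limma adjusted p = 0.454), lower on 4 of 4 arrays. The cyclases make the cyclic AMP that the regulatory subunits bind. Among the phosphodiesterases, which break cyclic AMP down, 2 of 25 clones were lower and 0 higher, beside 6.46% and 3.92% of all clones. Both of these, Pde3b (-2.16 ± 1.21, n = 3; adjusted p = 0.454) and Pde4b (-1.19 ± 1.33; adjusted p = 0.459), came from small spots (median area 20 pixels).

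A-kinase anchoring proteins place the type II enzyme in the cell, and 43 of their clones were tested. At an unadjusted p under 0.05, 2 were higher and 3 lower, beside 3.92% and 6.46% of all clones, and the list median was 0.03. The smallest p belonged to Arfgef2, a trafficking protein that also anchors the kinase, at -2.40 ± 1.66 on small spots (median area 25 pixels) (limma adjusted p = 0.454). Akap9 had 1.48 ± 1.32 (adjusted p = 0.454) from a clone whose title names a likeness to a myosin heavy chain. In the nucleus, where the catalytic subunits act on CREB family factors, 4 of 18 clones of targets and coactivators were higher and 0 lower at that p, against the same shares of all clones. This list was chosen with earlier results of these data known, so its count is no independent evidence about the group. The smallest p there came from a pair of Crem clones, the cyclic AMP response modulator, at 1.64 ± 0.43 and 1.44 ± 0.35 (limma adjusted p = 0.454 for each), higher on 4 of 4 arrays. Both clones of this 1 gene are among the 4 counted. Control signal was detected on 1 and 3 of the 4 arrays. Of 4 clones of the nearest kinases, Prkx, Prkg1 and Prkg2, 0 reached an unadjusted p under 0.05. Prkx had 0.42 ± 0.46 (adjusted p = 0.564) and Prkg2 0.35 ± 0.56 (adjusted p = 0.641).

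The means of Prkacb, Prkar1b and Prkar2a kept their sign under the settings drawn in the plot of settings that tested them, whereas the other 8 clones each crossed 0 in at least 1 setting. The deposited log2 ratios, not drawn and not centred, turned Prkacb positive, though it was -2.18 relative to the median of all clones there. Over the 14 alternatives, 4 of which left out 1 array each, no member reached an adjusted p under 0.05. The lowest, 0.0657, was that of Prkar1a clone AW555666 in the deposited log2 ratios. Over all library clones the lowest limma adjusted p there was also 0.0657, and the median log2 ratio of all clones there was 3.31. With any 1 array left out, Prkacb had a mean of -0.62 to -0.52, Prkar2a of 0.51 to 0.76 and Prkar1b of 0.39 to 0.68.

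**Figure D4:**
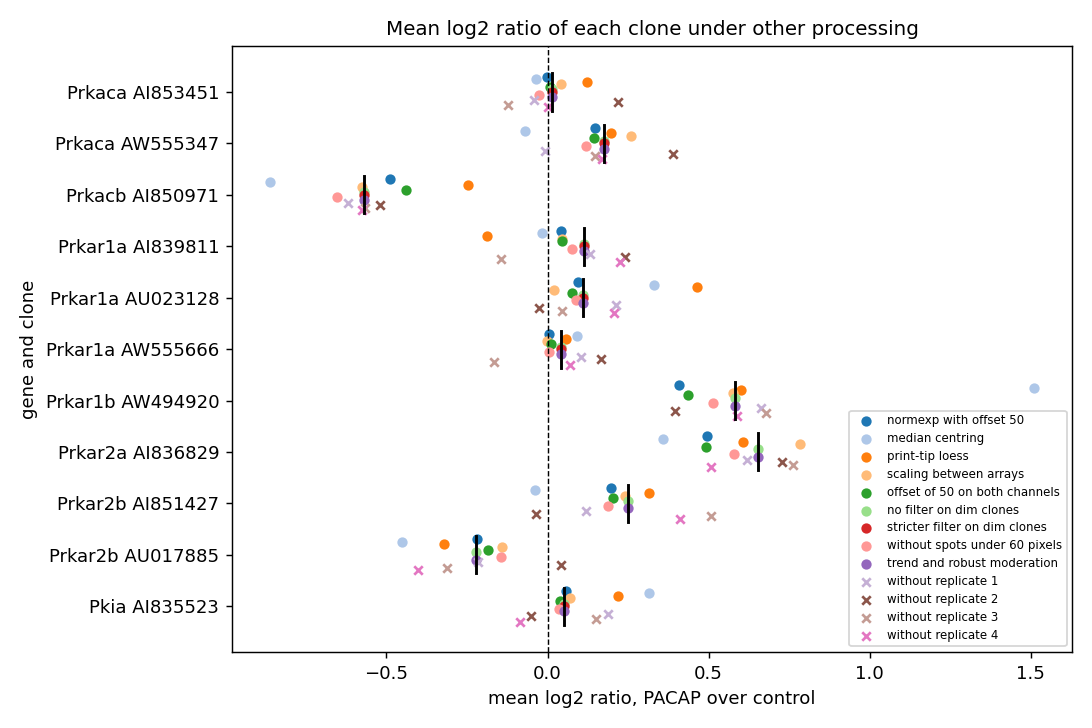
Mean log2 ratio of PACAP over control (x axis) for each clone (y axis) as reported (black bars) and under 13 other settings (circles for other processing, crosses for 1 array left out); the deposited log2 ratios are not drawn. Prkacb lies below 0 throughout, at -0.86 to -0.25, while the bars and symbols of Prkaca, Prkar1a, Prkar2b and Pkia lie on both sides of 0.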

How the data were processed

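The files hold 4 scanner tables of 37632 spots and a series table. Per the file headers, intensity and local background are given for each spot and dye on a linear scale, and from the values the deposited mean intensity already had the background subtracted. The deposited ratio is Cy5 over Cy3 divided by 1 calibration factor per array, per the file headers and the values. The log2 ratios that the authors deposited for the whole series are PACAP over control, not centred; recomputing them from the scanner tables gave their direction and showed a second subtraction of the background, with a floor of 1, and division by the calibration factor. Spot area is in pixels. Which program read the images is not given in these sources. Symbols came from the platform annotation through the series table. Its entries were matched to spots by the deposited log2 ratios, set against those recomputed from the scanner tables. The matches were extended to neighbouring entries by their numbering. A join was kept where the median difference was under 0.1 log2 units, so that agreement is part of the join and no separate check of it. In all, 35661 of 35873 entries were joined, and the 2292 joins that could be checked by a shared identifier all matched. Joined entries had 1 symbol (22397), several (1102) or none (12162).

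Intensities were floored at 1, log2(Cy5 / Cy3) was normalised with 1 loess curve per array (limma 3.58.1 under R 4.3.3), spots without area were left out and spots of a clone averaged. A clone was tested where 1 channel exceeded 2 background SD on at least 3 arrays. The mean was tested against 0 (lmFit, eBayes, 2-sided, Benjamini-Hochberg over 35110 clones). The procedure was run on simulated data with independent noise and the same known dye curve on every array. Those data are simpler than these arrays, so the run does not show how well dim clones are measured here. Every member is named, and of each pathway list the 2 clones of smallest p were eligible. The members and lists were chosen with earlier results of these data known. The alternatives were another background correction, 3 normalisations, an offset, 2 filters, spot area, the deposited ratios, other moderation and leaving out each array. The number of arrays limits the precision. Mouse clones were hybridised with bovine RNA, and related isoforms can share signal. Tables were made in Python 3.11.15 (scipy 1.17.1, numpy 2.4.6, pandas 2.3.3) and plots in matplotlib 3.10.9.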

Additional observations from a re-analysis of the deposited data

Results flagged for a closer look

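Among 32 values searched for 1 array lying well away from the rest, 1 was set apart; chance sets apart about 1 in 20 groups. Clone AI848740, titled protein kinase inhibitor gamma but without a gene symbol and so no member, stood at -0.33 (log2 ratio) on repeat 1, while the remaining arrays lay between 0.13 and 0.16. The gap was 0.94 of the whole range, past Dixon's 95% critical value for 4 arrays. Its mean was 0.02 ± 0.24.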

How the results depend on the processing

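The reported test is paired by repeat, because each array holds the treated and the control RNA of 1 repeat. With only 1 group of ratios, no further pairing of samples was possible. Library clones called by limma stayed at 0 except for 3 with trended and robust moderation. Members at an unadjusted p under 0.05 numbered 2 as reported, 1 with normexp, print-tip loess or the stricter filter, 3 with scaling between arrays, 6 in the deposited log2 ratios, 0 with trended and robust moderation, and 0 to 1 without 1 array. Members higher on all arrays numbered 2 as reported, 0 with median centring or the stricter filter, 1 with print-tip loess, 3 in the deposited ratios, and 2 to 4 without 1 array. Members lower on all arrays numbered 1 as reported, 0 with print-tip loess or the deposited ratios, 2 without spots under 60 pixels, and 1 to 2 without 1 array. In the reported fit, 3.92% of all clones were higher and 6.46% lower at that p. Those higher on all arrays made up 9.98% and those lower on all 10.1%. Shares of all clones under the other settings are not given here. The member median, 0.11 as reported, turned to -0.02 with median centring, was 0.04 to 0.20 under the other processing, 3.96 in the deposited ratios and 0.05 to 0.17 without 1 array. The deposited ratios are not centred, and the median of all clones there was 3.31, so member counts against 0 there include a shift of all clones. The difference of Prkar1b and Prkar1a reversed to -1.19 in the deposited ratios. Clone means that reversed were Prkaca AI853451 (-0.0012 with normexp, -0.0343 with median centring, -0.0263 without small spots), Prkaca AW555347 (-0.0689, median centring), Prkar1a AI839811 (-0.0157, median centring; -0.19, print-tip loess), Prkar1a AW555666 (-0.0005, scaling between arrays) and Prkar2b AI851427 (-0.0388, median centring). In the uncentred deposited ratios Prkacb (1.13) and Prkar2b AU017885 (1.10) turned positive. Relative to the median of all clones there they were -2.18 and -2.22, below it as in the reported fit. Leaving out 1 array gave -0.12 to 0.22 and -0.0068 to 0.39 for the Prkaca clones in that order, -0.14 to 0.24 for Prkar1a AI839811, -0.0254 to 0.21 for AU023128, -0.17 to 0.16 for AW555666, -0.0348 to 0.51 and -0.40 to 0.043 for the Prkar2b clones AI851427 and AU017885, and -0.0848 to 0.19 for Pkia. The causes were not tested. The stricter filter left 7 clones, without Prkar1b, Prkar2a and Prkar2b. Isoform differences and the restriction to arrays with detected control signal were chosen after seeing the data; under the latter Prkar2a was 1.09, from 1 array. Control signal at or under background limits what the ratios of the dim clones can show.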

Other observations

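A further 6 clones carry a title or a joint symbol of the kinase family but fall outside the rule. Clone AI837653, titled Prkar1a and without a symbol, had log2 ratios of 0.13, 0.46, 0.96 and 0.35 on repeats 1 to 4 (mean 0.48 ± 0.35; limma adjusted p = 0.519). It was higher with PACAP on 4 of 4 arrays, unlike the 3 Prkar1a members, beside 9.98% of all clones tested. Its highest array was repeat 3, where its control signal was not detected. Clone AI836199 has the same title but the symbol Atmin, and had -1.12, -2.31, -0.39 and -0.28 (mean -1.03 ± 0.94; limma adjusted p = 0.454). Title and symbol of that clone point to different genes, so its value was given to neither. A second clone titled Pkia (AI834868) had -0.30 ± 1.03 on 3 arrays, on small spots (median area 17.5 pixels). For Pkig, clone AI848740 had 0.02 ± 0.24, clone AW551149, annotated Ada, had 0.18 ± 0.69, and clone AI849281, annotated with both Pkig and Ada but titled a procollagen, had 0.27 ± 0.78. None of these clones passed limma's test.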
